A study of Mus musculus with 8 samples.

Results

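The globin and erythroid genes described here were Hba-a1, Hba-a2, Hbb-bt, Klf1, Epor, Tfrc, Car1, Car2 and Gata1, 9 of the 13378 genes in the junction table, and each was chosen by its symbol and matched by its Ensembl identifier. RNA was sequenced from FT1CL, a mouse acute myeloid leukemia line whose founding bone marrow came from a Cop1 cKO/Rosa26-Cre-ERT2 mouse, aged 8 weeks and given 5-fluorouracil beforehand. The marrow was transduced with a pMYs retrovirus carrying Trib1, and the cells grew with 5 ng/mL interleukin-3. There were 4 wild-type libraries, labelled Cop1 +/+ and untreated, and 4 knockout libraries, labelled Cop1 ko/ko and treated with 4-hydroxytamoxifen. Cop1 encodes a ubiquitin ligase that works with Trib proteins. Every library carried the Trib1 virus and the Cre-ERT2 allele, which sits in the broadly active Rosa26 locus and is switched on by 4-hydroxytamoxifen. The effects of the drug and of the deletion cannot be told apart, because they changed together. The labels describe 1 line and name no cultures or passages. The p-values therefore reflect only how far these 8 libraries scatter, and that scatter may be technical.

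Red cells form from progenitors shared with megakaryocytes, mast cells and basophils. GATA1 and KLF1 are transcription factors that switch on globin, heme and membrane genes. The erythropoietin receptor, encoded by Epor, carries the survival signal, and transferrin receptor 1, encoded by Tfrc, takes up the iron for heme in all dividing cells and most of all in red cell precursors. Alpha globin comes from Hba-a1 and Hba-a2 and adult beta globin from Hbb-bt and Hbb-bs, which are gene copies of nearly the same sequence. Car1 and Car2 encode carbonic anhydrases, of which Car1 is the more restricted to red cells in blood.

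Values are reads that span a splice junction, summed over the junctions of a gene and scaled to reads per 1000000 junction reads of the library (RPM). The libraries held 17333302 to 22469109 junction reads. Cop1 itself was read at 159 to 166 RPM in wild type and 66.7 to 81.3 RPM in knockout, with no overlap (log2 fold change -1.13, SE 0.08, limma adjusted p = 4.91e-04). The myeloid gene Mpo, which encodes myeloperoxidase, was read in all 8 libraries, at 149 to 963 RPM. Libraries numbered 4 stood apart from those numbered 1 to 3 in both groups, so results are given with and without them. Some single junctions held next to no reads where the rest of the gene held many, and these are called dropped values.

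The sequences at the globin junctions bear on every globin value that follows. Each line has 30 bases on either side of the splice junction, from the Gencode M21 transcripts, and capitals mark the 2 bases on each side of the join.
Hba-a1 and Hba-a2, exon 1 to exon 2: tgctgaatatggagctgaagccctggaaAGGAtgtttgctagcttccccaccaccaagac
Hba-a1 and Hba-a2, exon 2 to exon 3: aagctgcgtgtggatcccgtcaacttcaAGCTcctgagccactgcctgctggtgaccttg
Hbb-bt and Hbb-bs, exon 1 to exon 2: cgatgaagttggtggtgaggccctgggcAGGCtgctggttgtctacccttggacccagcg
Hbb-bt and Hbb-bs, exon 2 to exon 3: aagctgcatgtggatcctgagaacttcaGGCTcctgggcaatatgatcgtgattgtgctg
Each sequence is the same in both copies, also over 60 bases on each side. The coding sequences of Hba-a1 and Hba-a2 differ at 1 of 426 bases, and those of Hbb-bt and Hbb-bs at 1 of 441. A read at these junctions can therefore not be given to 1 copy from these bases, and how the authors' counting split such reads is not given in the sources used here. The values of Hba-a1 and Hba-a2 are uncertain as separate genes, as are those of Hbb-bt and Hbb-bs, and the alpha pair is best read as 1 measurement.

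The genes lie on build mm10 at chr11:32283511-32284465 (Hba-a1), chr11:32296489-32297298 (Hba-a2), chr7:103812524-103813996 (Hbb-bt), chr8:84901928-84905291 (Klf1), chr9:21958897-21963506 (Epor), chr16:32608920-32632794 (Tfrc), chr3:14766216-14808368 (Car1), chr3:14886273-14900770 (Car2) and chrX:7959260-7978071 (Gata1). The measured features of these genes are junctions between exon regions, and no read that crosses no junction entered a value. In Tfrc the join from region 6.2 to region 6.4 lies within a single exon block.

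Alpha globin fell in the knockout, and it was the clearest change among these genes. Hba-a1 had 16.7, 36.8, 31.0 and 41.2 RPM in wild-type libraries 1 to 4 and 3.61, 4.04, 4.54 and 4.01 RPM in knockout libraries 1 to 4. The lowest wild-type library lay above the highest knockout library, and the knockout libraries varied little. Its log2 fold change was -2.61 (SE 0.26, limma adjusted p = 0.0013). Hba-a2 had 15.1, 25.6, 18.6 and 30.5 RPM in wild type and 2.58, 2.88, 3.46 and 3.07 RPM in knockout. Its groups did not overlap either (log2 fold change -2.51, SE 0.22, adjusted p = 9.50e-04). Both calls held when the libraries numbered 4 were left out, with log2 fold changes of -2.46 and -2.36 (adjusted p 0.0026 and 0.0013).

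The low value of wild-type library 1 came from 1 junction. The junction from exon 2 to exon 3 held 1 read in that library for each of Hba-a1 and Hba-a2, and 105 to 320 reads in the other wild-type libraries. At the junction from exon 1 to exon 2, Hba-a1 had 349, 374, 279 and 413 reads in wild type and 39, 42, 47 and 45 in knockout. By that junction alone, Hba-a1 stood at 18.6 ± 3.71 RPM in wild type against 2.19 ± 0.276 RPM in the knockout (SD, n = 4), a ratio of 8.50. For Hba-a2 the values were 16.7 ± 3.40 and 1.93 ± 0.142 RPM (SD, n = 4), a ratio of 8.66. The ratio of Hba-a1 to Hba-a2 reads was near constant at this junction, 1.07 to 1.20 over the 8 libraries. At the junction from exon 2 to exon 3 it was higher and less even, 1.52 to 2.91 over the 7 libraries without a dropped value.

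Beta globin was read far more than alpha globin, and its knockout libraries disagreed. Hbb-bt had 377, 242, 355 and 516 RPM in wild type. In knockout it had 58.9, 43.1 and 118 RPM in libraries 1 to 3 and 419 RPM in library 4. Knockout library 4 thus lay within the wild-type range, while the other 3 lay below it. Over the 8 libraries the log2 fold change was -1.75 (SE 0.64) and did not pass the threshold (limma adjusted p = 0.089). It passed in the fit blocked on replicate number (adjusted p = 0.023), without knockout library 4 (log2 fold change -2.41, adjusted p = 0.0039) and without both libraries numbered 4 (-2.23, adjusted p = 0.0073). The differences within same-numbered pairs were -2.66, -2.46, -1.59 and -0.30 on the log2 scale. Both junctions of Hbb-bt showed this pattern, and neither had a dropped value.

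In knockout library 4 beta globin was thus within the wild-type range and alpha globin was not. The ratio of Hbb-bt to Hba-a1 reads at their junctions from exon 1 to exon 2 was 9.70, 5.35, 10.3 and 9.64 in wild type. It was 12.7, 7.24 and 20.6 in knockout libraries 1 to 3 and 90.9 in knockout library 4. This is a value of 1 library, and no test of it was possible.

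**Figure D1:**
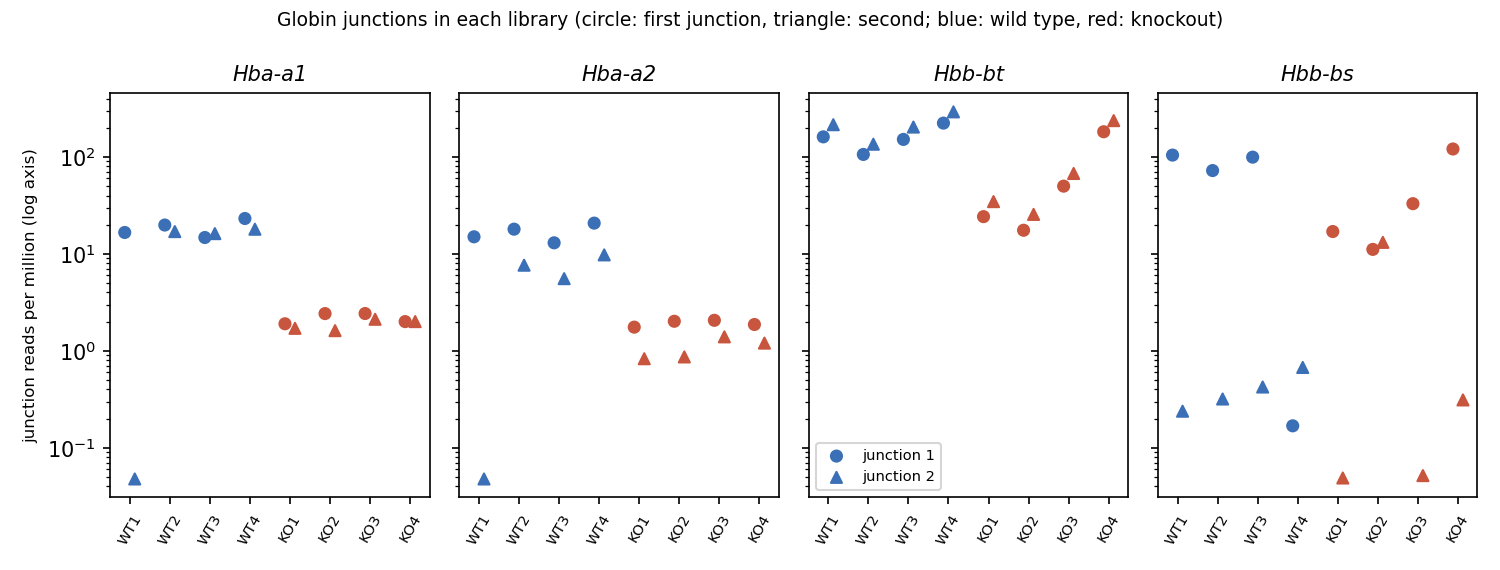
RPM (log axis) at each junction of Hba-a1, Hba-a2, Hbb-bt and Hbb-bs in the 4 wild-type (WT, blue) and 4 knockout (KO, red) libraries; circles are the junction from exon 1 to exon 2 and triangles that from exon 2 to exon 3. Alpha globin is low in all 4 knockout libraries, Hbb-bt is low in knockout libraries 1 to 3 and at 419 RPM over both junctions in library 4, and the lowest points of Hba-a1, Hba-a2 and, in wild-type library 4, Hbb-bs are dropped values.

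The other adult beta copy, Hbb-bs, followed Hbb-bt at 1 of its 2 junctions. At the junction from exon 1 to exon 2 it held 0.635 to 0.702 reads for each read of Hbb-bt in 7 libraries, but 3 reads against 3982 in wild-type library 4. Its junction from exon 2 to exon 3 held 1 to 12 reads in 7 libraries and 228 in knockout library 2, and did not follow Hbb-bt. The summed Hbb-bs value (log2 fold change 0.10, adjusted p = 0.97) rests on these junction values, and without both libraries numbered 4 it was -1.89 (adjusted p = 0.0037). The list of other globin genes held 10, among them Ahsp, which is not a globin gene and was not in the table. Of the 10, 2 were in the table, Hbb-bs being the first. The second, the embryonic gene Hbb-y, had 0.43, 0.05, 0.53 and 5.00 RPM in wild type and 0.05, 0, 0 and 1.65 RPM in knockout, too little for the test. Its 2 highest values were those of the libraries numbered 4.

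Of the 2 transcription factors, Gata1 was read in every library. It had 18.6, 19.2, 18.9 and 35.0 RPM in wild type and 13.9, 11.3, 14 and 17.1 RPM in knockout. All knockout libraries lay below all wild-type libraries, yet the test was not passed (log2 fold change -0.63, SE 0.23, limma adjusted p = 0.083). Blocking on replicate number gave an adjusted p of 0.027, and leaving out both libraries numbered 4 gave a log2 fold change of -0.51 (adjusted p = 0.039). Leaving out wild-type library 4 alone, which held the highest value, gave -0.41 (adjusted p = 0.12). Some reads joined different upstream exon blocks to block 6 of Gata1. The join from block 3 held 48, 42, 42 and 33 reads in wild type and 14, 15, 36 and 25 in knockout. The join from block 4 held 41, 62, 31 and 85 reads in wild type and 27, 27, 43 and 67 in knockout. Within each group the join from block 4 was highest in library 4, and the join from block 3 was not.

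Klf1 was close to unread outside the libraries numbered 4. It had 2, 1, 3 and 36 reads in wild type and 1, 1, 3 and 23 reads in knockout, which is 0.10, 0.05, 0.16 and 2.02 RPM and 0.05, 0.06, 0.15 and 1.02 RPM. Its mean of 0.452 RPM over the 8 libraries was below the 1 RPM needed for the test. Against the pooled reads of libraries 1 to 3, library 4 was 19.8-fold higher in wild type (95% exact interval 8.26 to 57.4, from 36 and 6 reads) and 11.7-fold higher in knockout (4.36 to 39.4, from 23 and 5 reads). These intervals cover counting error only.

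Epor showed the same split by library number. It had 10, 4, 4 and 89 reads in wild type and 9, 2, 12 and 105 reads in knockout, or 0.48, 0.21, 0.21 and 5.00 RPM and 0.44, 0.12, 0.62 and 4.67 RPM. In library 4 it was 16.3-fold higher than in the pooled libraries 1 to 3 of wild type (95% exact interval 9.75 to 28.8) and 11.6-fold higher in knockout (7.35 to 19.1). Between the groups the log2 fold change was 0.05 (SE 0.66, limma adjusted p = 0.97). That error leaves differences of either sign undetected, and leaving out knockout library 4 gave -0.47 (adjusted p = 0.59).

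Tfrc was read highly in all libraries and was lower in the knockout. It had 509, 531, 663 and 499 RPM in wild type and 260.5, 368, 330.5 and 461 RPM in knockout. The groups did not overlap, though knockout library 4 came near the lowest wild-type library. The log2 fold change was -0.65 (SE 0.17, limma adjusted p = 0.032). This call was close to the threshold. It was lost in 10 of 20 alternative analyses, among them 7 of the 8 that left out 1 library (adjusted p 0.054 to 0.084), scaling by trimmed means (0.052) and edgeR on reads (0.054). Without knockout library 4 it held (log2 fold change -0.79, adjusted p = 0.0083), and without both libraries numbered 4 it was -0.83 (adjusted p = 0.012). Of its 19 junctions, 4 had 13 dropped values between them. The other 15 stood at 29.7 ± 3.62 RPM per junction in wild type against 20.3 ± 5.87 in the knockout (SD, n = 4), with a log2 fold change of -0.58 (adjusted p = 0.053).

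The libraries numbered 4 stood out in both carbonic anhydrase genes. Car1 had no read in the 6 libraries numbered 1 to 3, 161 reads in wild-type library 4 (9.04 RPM) and 70 in knockout library 4 (3.12 RPM). A count of 0 allows up to 3 reads, or 0.143 to 0.173 RPM per library. Car1 was thus at least 56.8-fold higher in wild-type library 4 and at least 18.0-fold higher in knockout library 4 than in the other libraries of the group. Its reads fell on all 7 junctions, with 5 to 39 in wild-type library 4 and 2 to 19 in knockout library 4. The test between groups gave a log2 fold change of -0.32 (SE 0.84, limma adjusted p = 0.83), which rests on these 2 libraries.

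Car2 was read in every library. It had 20.7, 25.4, 9.89 and 204 RPM in wild type and 5.32, 6.06, 5.78 and 84.2 RPM in knockout. Within libraries 1 to 3 every knockout value lay below every wild-type value, and in both groups library 4 lay far above the rest, by 10.9-fold over their mean in wild type and 14.7-fold in knockout. The 8-library test was not passed (log2 fold change -1.41, SE 1.1, limma adjusted p = 0.40). It was passed in the blocked fit (adjusted p = 0.0087) and without both libraries numbered 4 (log2 fold change -1.46, adjusted p = 0.020). All 6 junctions carried the pattern, with 556 to 665 reads in wild-type library 4 and 24 to 95 in the other wild-type libraries.

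**Figure D2:**
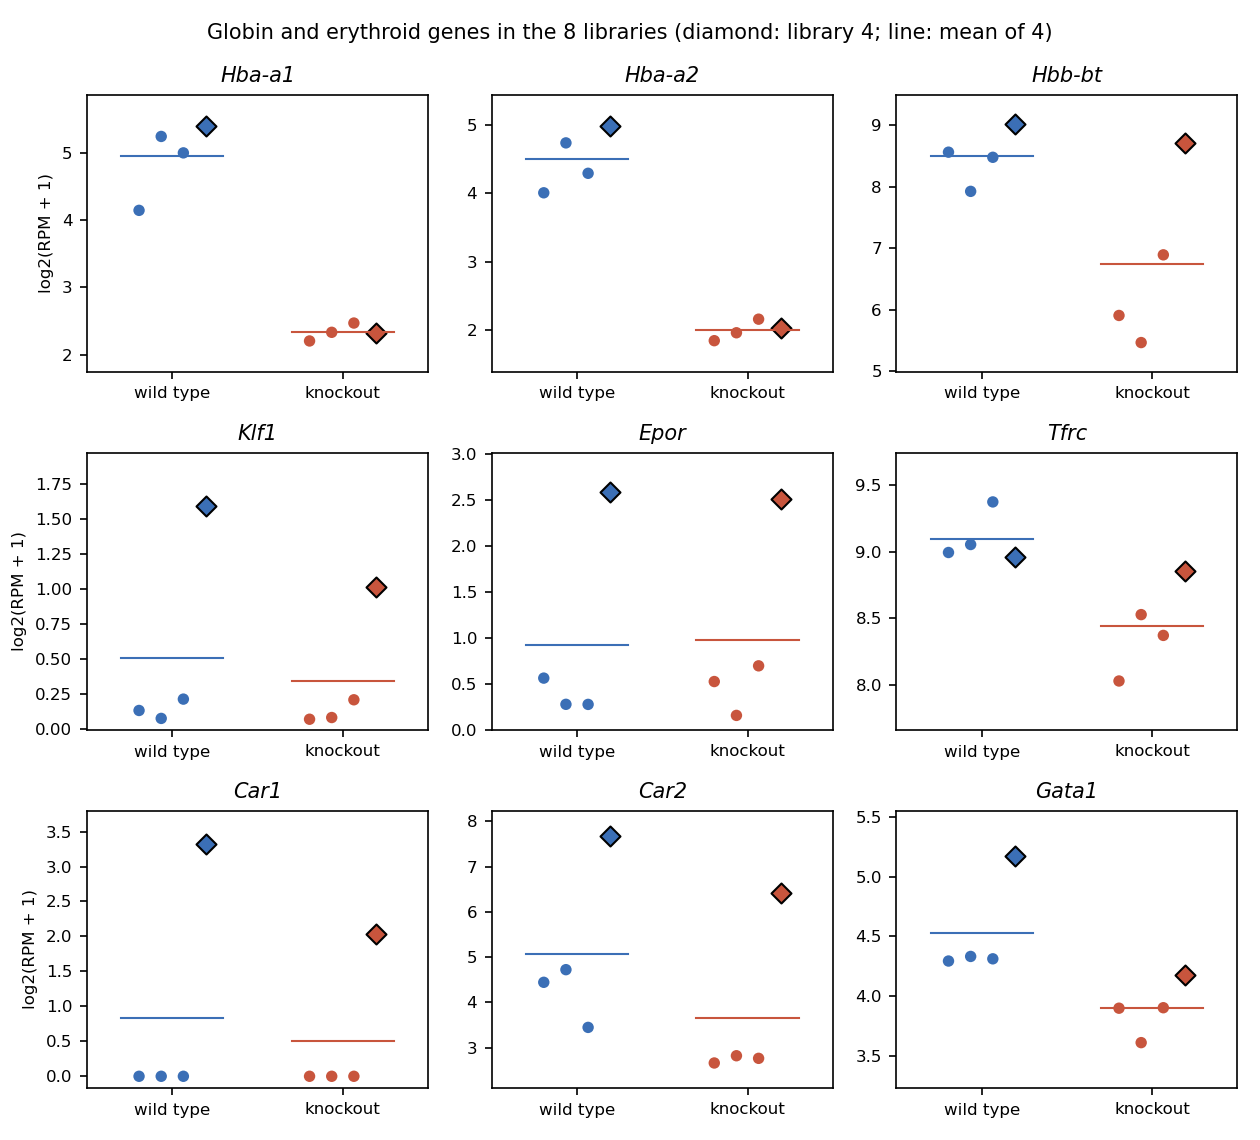
log2(RPM + 1) of each gene in the 4 wild-type (blue) and 4 knockout (red) libraries; diamonds are the libraries numbered 4 and lines the group means. Hba-a1, Hba-a2, Tfrc and Gata1 separate the groups, while Klf1, Epor, Car1 and Car2 separate the libraries numbered 4 from the rest.

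Across the 9 genes, 8 had enough reads for the test between groups, 3 were called lower (Hba-a1, Hba-a2 and Tfrc) and none higher. Of the 8, Epor and Car1 had enough reads only through the libraries numbered 4. Among the 11003 genes tested 12.1% were called lower and 8.49% higher, or 8.83% lower and 9.92% higher with scaling by trimmed means, which called 2 of the 8 lower. By edgeR 2 of the 8 were lower, where 980 of 11003 genes were. By DESeq2 3 were lower, where 1395 of 11003 genes were, but it gave no adjusted p for Epor, Car1 and Car2. Of the 3 calls, 2 share the alpha globin reads. The median log2 fold change of the 8 was -1.03, against -0.07 over all genes tested. For 4 of the 8 every knockout library lay below every wild-type library, which 15.4% of all genes tested showed, and for none did every one lie above (9.79% of genes). Without both libraries numbered 4, all 6 genes that still had a mean of at least 1 RPM were called lower (Hba-a1, Hba-a2, Hbb-bt, Tfrc, Car2 and Gata1), where 14.1% of 10893 genes were. With the replicate block the same 6 were called, where 15.7% of genes were. The alpha pair, best read as 1 measurement, counts as 2 genes in each of these counts and in the median.

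**Figure D3:**
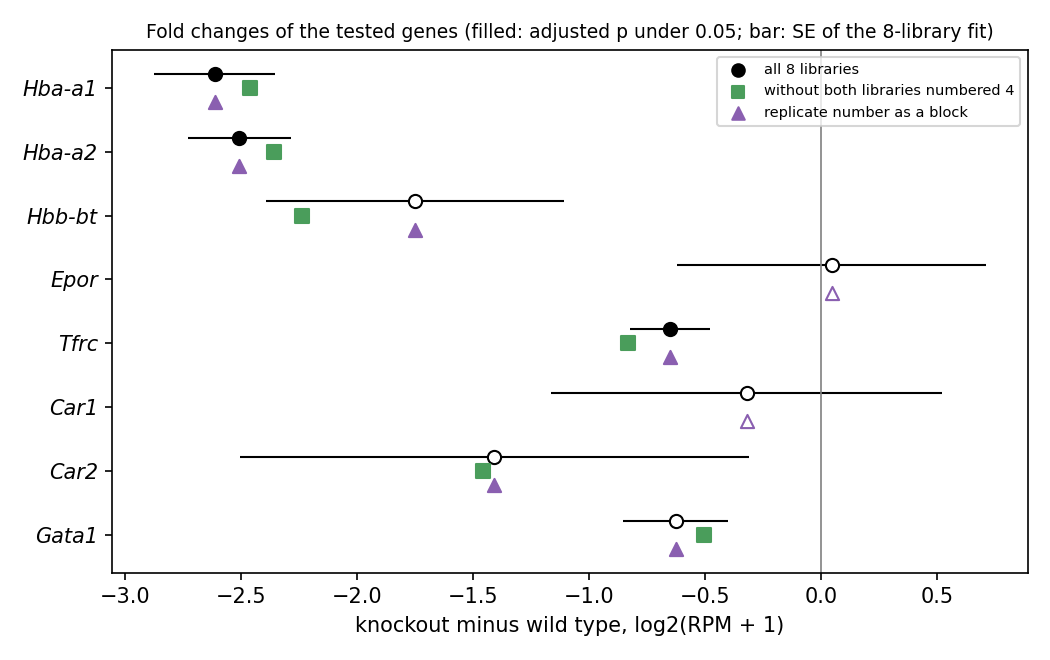
log2 fold change, knockout minus wild type, of the 8 tested genes from all 8 libraries (black, with the SE as a bar), without both libraries numbered 4 (green) and with the replicate number as a block (purple); filled symbols have an adjusted p under 0.05. Hbb-bt, Car2 and Gata1 are open in the 8-library fit and filled in the others, and Epor and Car1 have no green symbol because they had too few reads.

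How far the libraries numbered 4 differed from libraries 1 to 3 of their group varied among the genes. On the log2(RPM + 1) scale the difference in wild type and in knockout was 3.38 and 3.66 for Car2, 3.33 and 2.04 for Car1, 2.2 and 2.03 for Epor and 1.46 and 0.90 for Klf1. Those of Gata1 were 0.85 and 0.37, and those of Tfrc -0.19 and 0.53. For the globins the groups parted. Hba-a1 had 0.53 in wild type and -0.02 in knockout, Hba-a2 had 0.60 and 0.03, and Hbb-bt had 0.67 and 2.5. With 1 library numbered 4 in each group, none of these differences between the groups was tested. On that scale 3 of the 9 genes (Epor, Car1 and Car2) were at least 2-fold higher in both libraries numbered 4, which held for 2.04% of the 11003 genes tested. Epor and Car1 reached the mean of 1 RPM only through the libraries numbered 4, so being high there was a condition of their being tested. The added 1 RPM shrinks the difference of Klf1 to 0.90 in knockout, although its reads alone gave the 19.8-fold and 11.7-fold above. In wild-type library 4 alone 3.89% of genes were that much higher and in knockout library 4 3.89%. None of the 9 was at least 2-fold lower in either, where 4.14% and 6.94% of genes were.

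**Figure D4:**
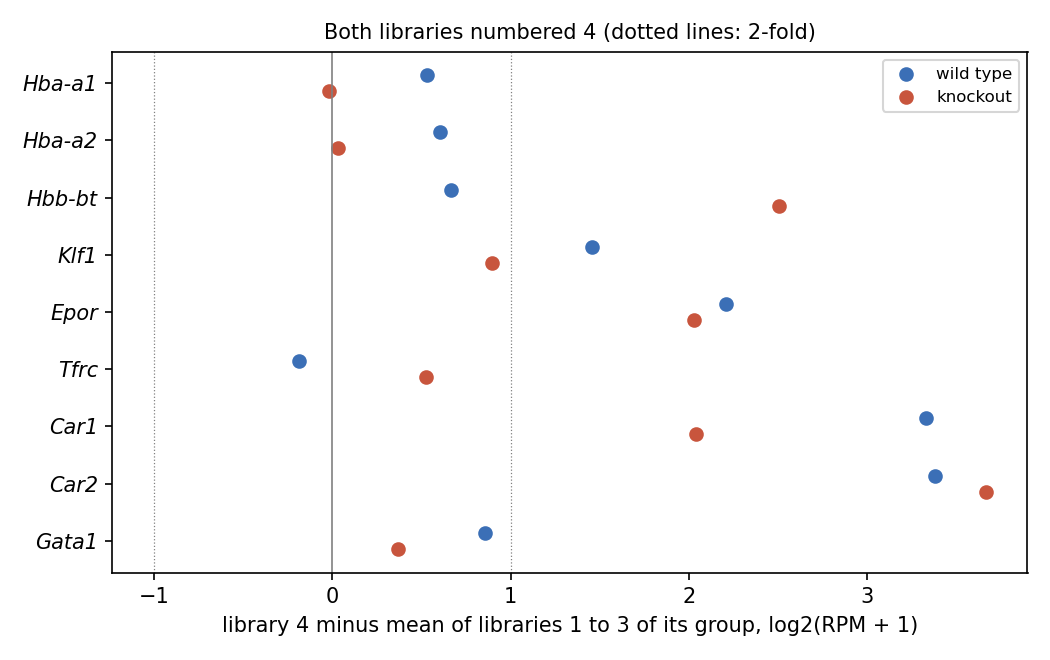
Difference of library 4 from the mean of libraries 1 to 3 of its group, on the log2(RPM + 1) scale, in wild type (blue) and knockout (red); dotted lines mark a 2-fold difference. Car2, Car1 and Epor lie beyond 2-fold in both groups, and Hbb-bt does so in knockout only, at 2.5.

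Levels of different genes can be set side by side only per junction, leaving out junctions with dropped values. Such a mean also counts rarely read joins, which lowers Tfrc and Gata1 against the globins. In wild type the Tfrc join from block 2 to block 3 held 0.16 to 0.43 RPM. The Tfrc join from block 4 to block 5 held 56.0 to 69.5 RPM. In wild type the order was Hbb-bt at 186 ± 56.2 RPM per junction, Tfrc at 29.7 ± 3.62, Hba-a1 at 18.6 ± 3.71, Hba-a2 at 16.7 ± 3.40, Car2 at 10.8 ± 15.4, Gata1 at 3.27 ± 1.15, Car1 at 0.323 ± 0.646, Klf1 at 0.291 ± 0.480 and Epor at 0.211 ± 0.336 (SD, n = 4). The ranges of Hba-a1 and Hba-a2 overlapped, that of Car2 overlapped those of Tfrc, both alpha copies and Gata1, and Car1, Klf1 and Epor could not be ordered. In knockout Hbb-bt had 79.8 ± 88.0, and its range (21.5 to 209.6) overlapped that of Tfrc (14.7 to 28.3), while Hba-a1 (2.19 ± 0.276), Hba-a2 (1.93 ± 0.142) and Gata1 (2.01 ± 0.344) came to like levels (SD, n = 4).

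Markers of red cells were examined across the same libraries. Of 16 listed genes of the red cell membrane and skeleton, 11 were in the table and 6 had enough reads for the test. Slc4a1, Epb42, Ank1, Ermap and Aqp1 were not in the table. None of the 6 was called between the groups, and none of the 4 that could be tested without both libraries numbered 4. Rhag, which encodes the Rh-associated glycoprotein, had no read in the 6 libraries numbered 1 to 3. It had 111 reads in wild-type library 4 and 28 in knockout library 4, at least 39.1-fold and 7.20-fold higher. Gypc and the tropomodulin gene Tmod1 were at least 2-fold higher in both libraries numbered 4. Gypc had 10.4 ± 9.76 RPM in wild type, against 6.39 ± 4.62 (SD, n = 4; log2 fold change -0.50, adjusted p = 0.57). Epb41, the gene of a skeleton protein found in many cells, had 191 ± 12.5 and 184 ± 8.66 RPM (log2 fold change -0.05, adjusted p = 0.71) and did not stand out in them. Here, as in any bulk sample, fewer cells of a type and less RNA per cell cannot be told apart.

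**Figure D5:**
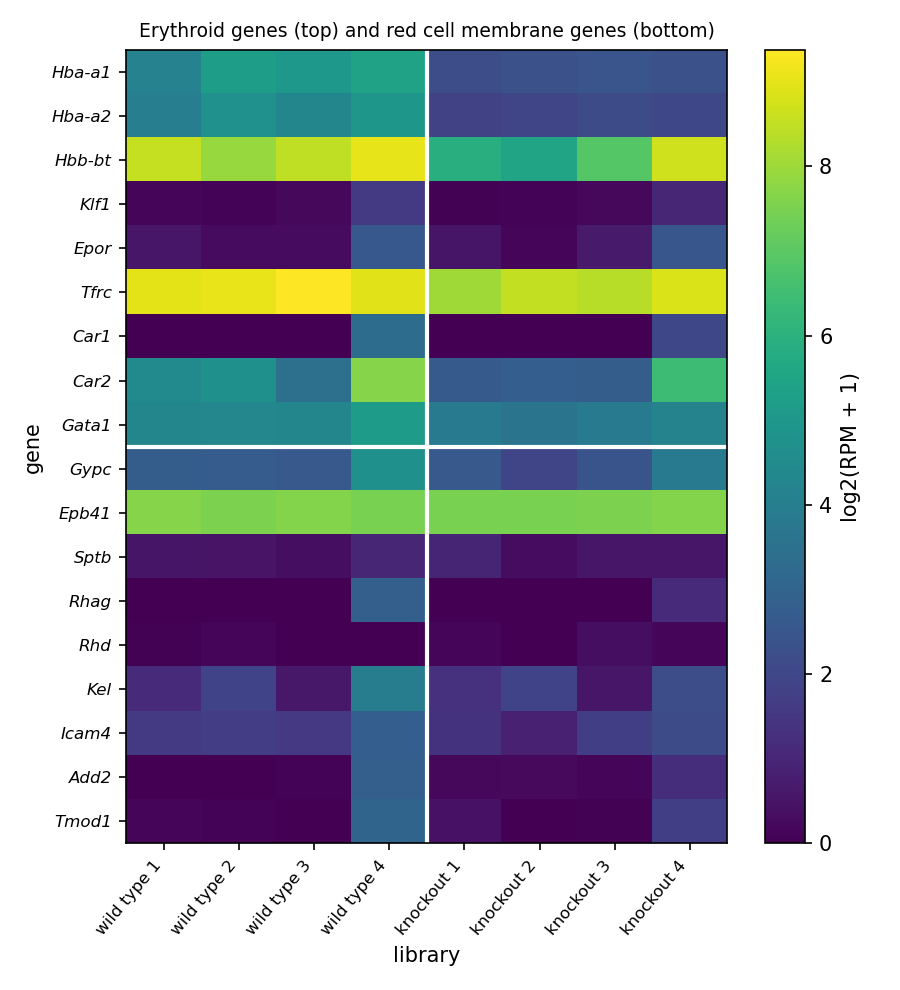
log2(RPM + 1) (colour) of the 9 globin and erythroid genes (top) and 9 of the red cell membrane genes (bottom) in each library (columns). Car1 and Rhag are at 0 in libraries 1 to 3 of both groups and above 0 in both libraries numbered 4, while Epb41 is even across the 8 libraries.

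In 13378 genes, 16 had no read in any library numbered 1 to 3 and at least 10 reads in each library numbered 4. Of the 95 genes of the erythroid lists in the table, 4 did so (4.21%, against 0.120% of all genes), among them Car1, Rhag and Tspan33. These were counted after their values had been seen. Markers of other lineages were read beside them. Of 7 megakaryocyte, 11 mast cell and basophil, 4 eosinophil and 12 neutrophil granule markers tested, none was at least 2-fold higher in both libraries numbered 4. Among those with too few reads for the test, the platelet glycoprotein gene Gp9 went from at most 0.29 RPM in libraries 1 to 3 to 1.74 and 1.42 RPM in the libraries numbered 4. Megakaryocyte markers summed to 783 to 1206 RPM in wild-type libraries 1 to 3 and 1075 in library 4, and to 889 to 1056 RPM in knockout libraries 1 to 3 and 1380 in library 4. Mast cell and basophil markers, of which Mcpt4 was at or near 0, summed to 12447 to 14389 RPM in wild-type libraries 1 to 3 and 13901 in library 4, and to 12494 to 17647 and 16922 RPM in knockout. These sums hide changes of single genes. Of the 11 tested, 4 were at least 2-fold lower and 1 at least 2-fold higher in wild-type library 4, and 2 were that much lower in knockout library 4. Of all genes tested, 4.14% were that much lower and 3.89% higher in wild-type library 4, and 6.94% lower in knockout library 4.

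Neutrophil granule markers moved the other way. They summed to 630.4 to 2344 RPM in wild-type libraries 1 to 3 and 393 in library 4, and to 7611 to 13258 RPM in knockout libraries 1 to 3 and 2025 in library 4. Of 12 tested, 7 were called higher in the knockout and none lower, where 8.49% and 12.1% of all genes tested were. In knockout library 4, 11 of the 12 were at least 2-fold lower than in knockout libraries 1 to 3, as were 6.94% of all genes tested. In wild-type library 4, 7 of the 12 were that much lower than in wild-type libraries 1 to 3, as were 4.14% of all genes. Of 4 eosinophil markers, 2 were that much lower in wild-type library 4 and 3 in knockout library 4. Eosinophil markers summed to 132 to 169 RPM in wild-type libraries 1 to 3 and 69.6 in library 4, and to 233 to 294 RPM in knockout libraries 1 to 3 and 53.4 in library 4, with Ear2 and Ccr3 at or near 0. Of 4 eosinophil markers tested 1 was called higher in the knockout, as were 5 of 11 mast cell and basophil markers and 2 of 7 megakaryocyte markers, with none called lower. In the blocked fit, and without both libraries numbered 4, 2 eosinophil markers were higher and 1 lower, and in the blocked fit 1 mast cell and basophil marker was lower. The part of these other lineages in the globin and erythroid values was not tested.

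Genes that work with the members were followed in lists. Over all genes tested, 12.1% were called lower and 8.49% higher, with a median log2 fold change of -0.07. With the replicate block these shares were 15.7% and 12.3%, and without both libraries numbered 4 they were 14.1% and 11.0%. In both libraries numbered 4, 2.04% of all genes tested were at least 2-fold higher. Of 15 erythroid transcription factors and partners, 14 were tested, 3 were called lower in the knockout and none higher (median log2 fold change -0.36). Ldb1, whose protein bridges GATA1 complexes, had 265 ± 12.7 RPM in wild type and fell to 182 ± 14.2 RPM in the knockout (SD, n = 4; a change of -0.54 in log2, limma adjusted p = 0.0042). Cbfa2t3, a corepressor of the same complexes, fell from 319 ± 39.4 to 181 ± 38.5 RPM (-0.83, adjusted p = 0.0095). Lyl1, a factor related to TAL1, had -0.45 (adjusted p = 0.022) and lost its call without knockout library 1 (0.060) or 3 (0.058). E2f2, a cell cycle factor, had 6.83 ± 3.24 and 24.2 ± 11.8 RPM (1.64, adjusted p = 0.053), and passed in the blocked fit (0.0017) and without both libraries numbered 4 (1.71, adjusted p = 0.0028) or knockout library 4 (2.07, adjusted p = 0.0094). With the block or without both libraries numbered 4, 4 of the list were lower and 1 higher. Mllt3 and Zfpm1, the gene of the GATA1 cofactor FOG1, were at least 2-fold higher in both libraries numbered 4.

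Heme and iron genes did not share 1 direction. Of 11 heme synthesis genes listed, 10 were in the table and tested, and Alas2 was not in it. Of the 10, 3 were called lower and none higher (median log2 fold change 0.02), where 12.1% and 8.49% of all genes tested were. Those 3 were Fech, which inserts iron into heme (-0.37, adjusted p = 0.024), Cpox (-0.57, adjusted p = 0.024) and Alad (-0.60, adjusted p = 0.046). Each lost its call when single libraries were left out, Fech in 6 of 8 such fits, Cpox in 5 and Alad in 7. Without both libraries numbered 4, Cpox had -0.46 (adjusted p = 0.061) and Alad -0.59 (0.084). Urod had 0.75 (adjusted p = 0.077), with an adjusted p of 0.0048 in the blocked fit and a log2 fold change of 0.90 (0.038) without knockout library 4. Its direction turned without junctions that had dropped values (-0.058, adjusted p = 0.96). With the block 2 heme genes were higher. None was at least 2-fold higher in both libraries numbered 4.

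Of 14 genes of iron uptake, export and storage tested, 4 were called higher and 1 lower (median log2 fold change 0.09). Over all genes tested these shares were 8.49% and 12.1%. With the block or without both libraries numbered 4, 3 of the list were lower. Hmox1, the heme-degrading oxygenase, had 19.9 ± 6.45 RPM in wild type and rose to 81.9 ± 22 RPM in the knockout (SD, n = 4; a change of 1.99 in log2, limma adjusted p = 0.0039). Slc40a1, the iron exporter ferroportin, rose from 0.340 ± 0.455 to 14.8 ± 10.8 RPM (3.24, adjusted p = 0.011), with 11.8, 28.3 and 16.9 RPM in knockout libraries 1 to 3 and 2.27 in library 4. The mitochondrial iron carrier gene Slc25a37 rose (0.75, adjusted p = 0.012), and Steap3, the ferrireductase that acts beside Tfrc, fell from 12.3 ± 2.11 to 4.03 ± 1.35 RPM (-1.43, adjusted p = 0.0049). Tfr2, the second transferrin receptor, was the 1 gene of the list at least 2-fold higher in both libraries numbered 4.

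Erythropoietin signalling held 11 tested genes, of which 2 were called higher and 2 lower (median log2 fold change -0.06). Over all genes tested 8.49% were called higher and 12.1% lower. Stat5a, a transcription factor that the receptor activates, fell from 166 ± 21.7 to 82.8 ± 12.7 RPM (SD, n = 4; -1.0 in log2, limma adjusted p = 0.0039). Cish, a feedback inhibitor of that path, rose from 26.3 ± 4.27 to 46.5 ± 3.26 RPM (0.81, adjusted p = 0.0070). Pim1 had -0.41 (adjusted p = 0.019) but not in the fits that left out wild-type library 1 (0.052), wild-type library 2 (0.054) or knockout library 2 (0.054). Lyn had 0.30 (adjusted p = 0.049) and lost its call in 10 of 20 alternatives, the replicate block (0.071) among them. None of the 11 was at least 2-fold higher in either library numbered 4. The cells grew with interleukin-3, whose receptor also acts through STAT5.

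Of 8 genes of late erythroid proteins tested, 4 were lower and 1 higher (median log2 fold change -0.56), where 12.1% and 8.49% of all genes tested were. Hemgn, a nuclear protein of blood progenitors, had 15.6 ± 7.20 and 2.80 ± 1.98 RPM (SD, n = 4; -2.14, limma adjusted p = 0.021), and Trim58, a ubiquitin ligase of late red cell precursors, 13.4 ± 5.18 and 3.63 ± 2.29 RPM (-1.66, adjusted p = 0.020). Each lost its call in 5 of the 8 fits without 1 library (adjusted p up to 0.059). The exportin gene Xpo7 fell by 0.39 (adjusted p = 0.0064; with only its most-read junction, 0.066), and Cpeb4, a regulator of translation, rose by 1.11 (adjusted p = 0.0042). Of 10 other carbonic anhydrases with any read, 6 were tested and none was called. Car13, a cytosolic member of the family, had 28.7 ± 17.2 and 13.2 ± 9.51 RPM (-1.1, adjusted p = 0.14). It passed with the block (0.0080), without both libraries numbered 4 (-1.16, adjusted p = 0.013) and without knockout library 4 (-1.50, adjusted p = 0.026). Car13 and Car5b were at least 2-fold higher in both libraries numbered 4, and Car9 had 13.8 ± 3.25 and 13.8 ± 2.47 RPM.

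Promoter sequences are shown for 1 gene of each pattern: alpha globin, lower in all knockout libraries; beta globin, lower in 3 of them; and Klf1 and Epor, higher in both libraries numbered 4. They are the parts outside annotated exons of the 250 bases before the start in RefSeq (GRCm38.p6), which held 7 of the 9 genes, and capitals mark 3 motifs on either strand. The motif of GATA factors is GATAA (in the reverse TTATC), that of KLF1 and related factors is CACCC (in the reverse GGGTG), and the third, bound by other factors, is CCAAT (in the reverse ATTGG).
Hba-a2, chr11:32296242-32296488, plus strand: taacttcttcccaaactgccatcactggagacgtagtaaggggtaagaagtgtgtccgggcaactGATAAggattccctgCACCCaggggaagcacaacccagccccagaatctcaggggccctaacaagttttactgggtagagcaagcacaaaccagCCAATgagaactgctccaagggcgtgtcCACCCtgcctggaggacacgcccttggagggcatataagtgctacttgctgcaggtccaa
Hbb-bt, chr7:103813997-103814173, minus strand: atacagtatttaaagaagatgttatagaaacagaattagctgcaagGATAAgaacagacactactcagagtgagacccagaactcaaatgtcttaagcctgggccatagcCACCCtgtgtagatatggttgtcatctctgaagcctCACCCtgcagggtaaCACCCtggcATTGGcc
Klf1, chr8:84901732-84901927, plus strand: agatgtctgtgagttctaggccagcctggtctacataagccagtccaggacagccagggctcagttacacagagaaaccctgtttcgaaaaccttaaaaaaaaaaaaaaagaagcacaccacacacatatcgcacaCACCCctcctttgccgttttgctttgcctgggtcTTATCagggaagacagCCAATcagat
Epor, chr9:21963577-21963826, minus strand: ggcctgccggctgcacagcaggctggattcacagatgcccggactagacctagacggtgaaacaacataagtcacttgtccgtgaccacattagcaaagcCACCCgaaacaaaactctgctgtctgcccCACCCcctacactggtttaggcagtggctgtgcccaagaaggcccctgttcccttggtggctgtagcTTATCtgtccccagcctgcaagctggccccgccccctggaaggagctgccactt
Of 32851 promoter windows of 250 bases, 22.6% held GATAA, 52.0% CACCC and 33.8% CCAAT. The stretches shown had 247 (Hba-a2), 177 (Hbb-bt), 196 (Klf1) and 250 bases (Epor), so all but that of Epor were shorter than these windows. All 4 promoters shown held GATAA 1 time and CACCC 1 to 3 times, and Epor alone held no CCAAT. The windows of Gata1 and of both Tfrc starts in RefSeq held CACCC and no GATAA. The Hba-a1 and Hba-a2 entries, which run past the start into the gene, were identical over the 297 bases compared after a shift of 3. These matches describe letters and are not evidence of binding.

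Genes whose profile over the 8 libraries was most like that of a member were found by the root mean square distance between log2(RPM + 1) profiles centred on their means. For Hba-a1 they were Hba-a2 (0.155), Neb (0.331) and Ccdc102a (0.353), and for Hba-a2, after Hba-a1, Ccdc102a (0.258) and Neb (0.313). Nearest to Hbb-bt were Nr4a1 (0.447), Homer2 (0.503) and Tmem176b (0.552). Nearest to Tfrc were Ppm1f (0.091), Ftsj3 (0.109) and Tbl3 (0.118), and to Gata1 Fbxl19 (0.094), Bmi1 (0.125) and Phka2 (0.125). Epor had Tmco3 (0.293), Pear1 (0.294) and Dock1 (0.326), Car1 had Slc44a1 (0.472), Tns1 (0.520) and Dock1 (0.524), and Car2 had Samd14 (0.387), Podxl (0.545) and Actr3b (0.598). A gene that varies little has small distances by construction, and all profiles share the same 8 libraries.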

How the data were processed

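The authors deposited a normalised signal per splice junction (AltAnalyze identifiers, per the file headers) for 134051 junctions of 13378 genes, of which 13247 were matched to symbols. Per the submitters' processing notes, Trimmomatic 0.39, kallisto and build mm10 were used; for the aligner and annotation, nothing is given in the sources used here. Tested on the values, the deposited signal was the junction's reads plus 1, scaled by the library total and 60 nt, with 0 reads at a shared floor of 0.854. Inverting this gave whole reads for 100% of values above the floor (tolerance 0.001 read).

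Reads were summed per gene and scaled to 1000000 junction reads (RPM); a read across several junctions counts at each. Sets of 4 wild-type and 4 knockout libraries were compared by limma 3.58.1 (trend, robust) fitted to log2(RPM + 1) of the 11003 genes whose mean reached 1 RPM, at a threshold of 0.05 after Benjamini-Hochberg adjustment. This scale understates fold changes of low genes. Scripts were tested on simulated data. As alternatives, edgeR 4.0.16 and DESeq2 1.42.0 were run on the reads, edgeR calling 2042 genes, along with other pseudocounts, filters, scaling by trimmed means (TMM), other sums of junctions, a replicate block and leaving out libraries. A value was called dropped at 6 or fewer scaled reads where the rest of its gene predicted 100 or more (29061 values of 3185 genes).

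The replicate numbers appeared to pair the libraries. Same-numbered libraries deviated together from their group means, at correlations of 0.293 to 0.550 (the highest for the libraries numbered 4), and different numbers at 0.146 or less. The pairing is read from this check, since the labels give the number alone.

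The members and lists were chosen with earlier results of these data known. The rule named all 9 members, Cop1, of each erythroid list up to 4 tested genes with the smallest adjusted p (or the 2 with the highest mean where none passed), and the 3 genes of most like pattern with a mean of at least 10 RPM. Other genes named were chosen after their values were seen. A few genes are not reported here.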

Additional observations from a re-analysis of the deposited data

Results flagged for a closer look

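In groups of 4 libraries, 15 of 68 group values over 34 genes had 1 library far from the other 3 (Dixon's test of the gap against the group's range, at 95%). For normally spread values the test flags about 1 in 20 groups, and that spread was not checked for RPM. The share flagged over all genes was not computed. These genes were chosen with results of these data known, so the flags only describe them. In 14 of the 15 that library was numbered 4, and all 9 among the members were of this kind. Klf1 stood at 2.02 RPM in wild-type library 4 and 1.02 RPM in knockout library 4. Epor had 5.00 and 4.67 RPM there, Car1 9.04 and 3.12 RPM, and Car2 204 and 84.2 RPM. Gata1 had 35.0 RPM in wild-type library 4.

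Among the genes of the lists, Gypc had 25 RPM in wild-type library 4. In knockout library 4 Hbb-bs had 121 RPM, Car13 27.4 RPM, Xpo7 160.9 RPM and Trim58 7.03 RPM. Alad was lowest in knockout library 2, at 15.3 RPM.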

How the results depend on the processing

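Of the 2264 genes called (934 higher, 1330 lower), leaving out 1 library at a time gave 1215 (without knockout library 3) to 2991 (without knockout library 4), and the members called were 2 to 4 in place of 3. With the replicate block, or without both libraries numbered 4, 6 members were called. Scaling by TMM turned the balance of calls to 1092 higher and 972 lower, edgeR gave 1062 and 980, and DESeq2 1633 and 1395. Hba-a1 and Hba-a2 kept direction and call in all 20 alternatives. Some genes changed sign without passing the test, except where given. Epor was at -0.08, -0.17 and -0.17 with wild-type library 1, 2 or 3 left out. With knockout library 4 left out Epor was at -0.47 (range to 0.32). Hbb-bs was at -0.19 (pseudocount 5), -0.47 (edgeR), -0.46 (DESeq2) and -1.89 (without both libraries numbered 4, limma adjusted p = 0.0037). Hbb-bs was also at -0.0019 (most-read junction) and at -1.31 and -0.48 (without wild-type or knockout library 4, range to 0.63). Urod was at -0.058 without dropped junctions, Epb41 at 0.029, 0.021 and 0.032 (TMM, edgeR, DESeq2), Gypc at 0.0027 without wild-type library 4 (range from -0.87), and Car9 at -0.14 and -0.08 without wild-type or knockout library 1 (range to 0.12). The cause of these turns was not tested. The block added Hbb-bt, Car2 and Gata1 to the members called. Group means moved by less than 1 SD with sums of the deposited values. Klf1, Epor and Car1 had too few reads in libraries 1 to 3 for a comparison of the groups there.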

Other observations

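The 12 genes outside the erythroid lists that had no read in the libraries numbered 1 to 3 and at least 10 in each library numbered 4 had, in 9 of the 12, more reads in wild-type library 4 than in knockout library 4. Slc38a5, an amino acid transporter gene, had 1382 reads there and 42 in knockout library 4. Greb1 had 516 and 20, Fam84a 514 and 96 and Sdk2 446 and 39. Pls1 had 135 and 120, Tspan6 62 and 57, Trib2 27 and 10 and Fgf13 27 and 30. Trib2 is a relative of the Trib1 that all these cells carry.

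Epo, the gene of erythropoietin itself, was read at 42.7 to 47.6 RPM in wild type and 49.8 to 53.2 RPM in knockout (log2 fold change 0.21, limma adjusted p = 0.099). It was singled out after its values had been seen.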
